A study of Mus musculus with 4 samples.

Results

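The 10 genes described here encode enzymes that methylate lysine 4 of histone H3 and the subunits these enzymes share: *Mll1*, *Mll2*, *Mll3*, *Setd1a*, *Setd1b*, *Wdr5*, *Ash2l*, *Rbbp5*, *Dpy30* and *Men1*. They were chosen by name, and all 10 were found among the 37310 genes of GENCODE M1 (22380 of them protein-coding), an annotation on the mm9 assembly. The symbol *Mll2* has been used for different genes. In GENCODE M1 it stands for the gene on chromosome 15 that RefSeq calls *Kmt2d*, and the gene on chromosome 7 that RefSeq calls *Kmt2b* is listed as *Wbp7*. Binding of Myc and Max to these genes was read from 2 lists of ChIP-Seq peaks from E14 mouse embryonic stem cells (ESCs), cultured with serum and LIF. For the Bio-Myc list, a stable E14 clone that expresses biotin-tagged Myc was used, with the tag at the N-terminus and expression from the ubiquitous EF1α promoter in cells that carry the biotin ligase BirA, and chromatin was purified on streptavidin beads. For the Max list, an anti-Max antibody was used on parental wild type E14 cells. A mock streptavidin ChIP and an IgG ChIP were the respective controls of the peak calling and are not analysed here on their own. The mock cells are parental wild type in the sample labels and BirA cells without a tagged protein in the study's methods. Each list comes from 1 library and the Bio-Myc cells from a single clone, so no value below has an error between cultures, and differences between the lists cannot be told apart from differences between the clone and the parental cells, between streptavidin and antibody, or in depth, which is unknown. The lists hold no expression values, so the identity of the cells could not be checked against marker genes.

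Methylation of H3K4 marks active chromatin, with trimethylation at promoters and monomethylation at enhancers. In mammals it is written by complexes related to yeast COMPASS. Each has 1 catalytic SET-domain protein, which needs the core subunits Wdr5, Rbbp5, Ash2l and Dpy30 for full activity. Setd1a and Setd1b write most of the promoter trimethylation, Mll1 and Wbp7 act at selected promoters such as those of the Hox genes, and Mll2 (Kmt2d) and Mll3 act mainly at enhancers. Men1 (menin) is found with Mll1 and Wbp7. Myc and Max bind DNA as a dimer at the E-box, CACGTG, and Myc has been linked to chromatin that already carries H3K4 methylation, also through contact with Wdr5.

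The E-boxes under the peaks within 1 kb of a TSS of these genes are shown first, since they are the sites that Myc and Max dimers are known to bind. The peaks of *Rbbp5*, *Dpy30* and *Men1* held none. Each is printed 5′ to 3′ on the strand of the gene, from the mm9 sequence, with the E-box in capitals and 12 bases to either side.
Mll2, under both peaks, chr15:98702746-98702775: gggctttattccCACGTGtctgcccggcgg
Mll3, under both peaks, chr5:25005641-25005670: gggtcgcggacgCACGTGcgcgcaccgcac
Wdr5, under both peaks, chr2:27370869-27370898: tccacagcgccgCACGTGttccgagggcct
Ash2l, under the Bio-Myc peak, chr8:26959067-26959096: acatgaggaacaCACGTGctccccaggagc
Setd1b, under the Max peak, chr5:123594327-123594356: ggcaacattatcCACGTGgagctggacacc
The E-boxes of *Mll2* and *Ash2l* lie between annotated genes, that of *Mll3* in an intron of the lincRNA gene *4831440E17Rik*, that of *Wdr5* in its own intron, and that of *Setd1b* in coding sequence. Apart from the E-box itself, the flanks differ between all of them.

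Within 1 kb of any annotated TSS, a Bio-Myc peak was found at 5 of the 10 genes (*Mll2*, *Mll3*, *Wdr5*, *Ash2l* and *Men1*), where 14.6% of all protein-coding genes and 10% of all annotated genes had one. A Max peak was found at 7 (*Mll2*, *Mll3*, *Setd1b*, *Wdr5*, *Ash2l*, *Rbbp5* and *Dpy30*), against 34.8% of protein-coding and 23.7% of all genes. Peaks of both lists were found at 4 (*Mll2*, *Mll3*, *Wdr5* and *Ash2l*), against 12.7% and 8.64%. At 3 of these 4 the Bio-Myc and Max peaks overlapped. Among the 2832 protein-coding genes with peaks of both lists, they overlapped at 2774 (12.4% of all protein-coding genes), so overlap was the usual case. At *Ash2l* they lay at different TSSs. *Mll1* and *Setd1a* had a peak of neither list. The 1-kb limit passed between *Setd1b*, whose Max peak began 969 bp from a TSS, and *Mll1*, whose Max peak began 1091 bp away.

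Within 5 kb of a TSS the Bio-Myc count was still 5 (16.6% of protein-coding genes), the Max count rose to 9 with *Mll1* and *Men1* (38.6%), and both peaks were found at 5 (14.5%). *Setd1a* alone had no peak of either list within 5 kb. Several of these genes have many annotated TSSs, up to 10 for *Ash2l* and *Men1*, so each gene was also given its outermost TSS only. A Bio-Myc peak was then within 1 kb of 5 genes (13.6% of protein-coding genes), a Max peak of 4 (32.2%) and both of 3 (11.7%), with the Max peaks of *Setd1b*, *Ash2l* and *Dpy30* no longer counted. The Bio-Myc count depended on the score limit, since at p-values up to 1e-15 only the Bio-Myc peak of *Mll2* was left, while 6 genes had such a Max peak. That limit is a score of 150. Of all Bio-Myc peaks within 1 kb of a protein-coding TSS, 55.2% scored 149.87 or lower. Of the Max peaks there, 39.0% scored 149.75 or lower. The share of all genes with a peak at this limit was not worked out.

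**Figure D1:**
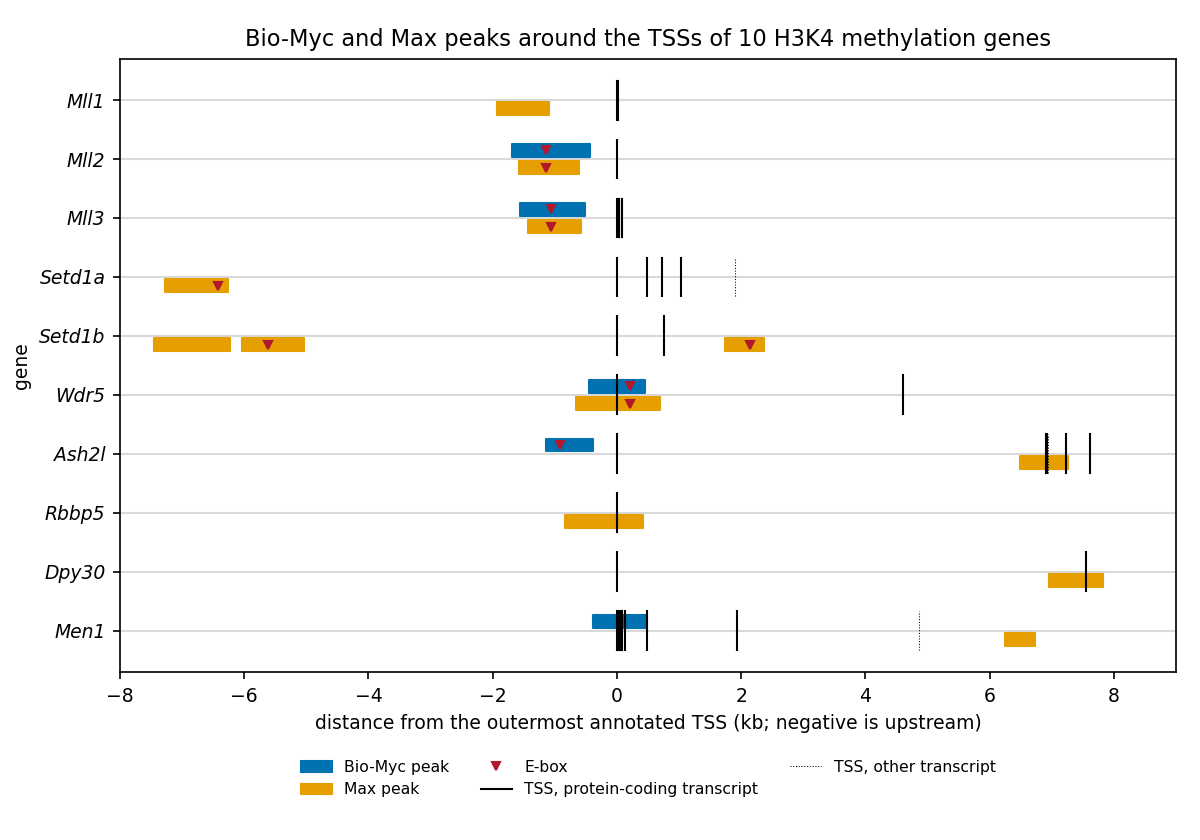
Peaks of the Bio-Myc list (blue) and the Max list (orange) at each of the 10 genes. The horizontal axis is the distance from the outermost annotated TSS in kb. Red triangles mark only the E-boxes under these peaks, and vertical lines mark the annotated TSSs in the range shown. The overlapping peaks of Mll2 and Mll3 lie upstream of the TSS with the E-box near their middle, those of Wdr5 cover the TSS, and the Max peaks of Ash2l and Dpy30 lie at TSSs inside the genes.

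Among the catalytic subunits, the 2 Kmt2c/d-type enzymes had peaks of both lists, and in both genes these lay upstream of the TSS rather than over it. *Mll2* (ENSMUSG00000048154.7, chromosome 15, minus strand, 98662100 to 98701614) had a Bio-Myc peak between 98702043 and 98703302, scored at 214 (rank 856 of 3962). The score is -10 times log10 of the p-value that MACS gave. The Max peak of *Mll2*, between 98702228 and 98703185, was scored at 547 (rank 798 of 11570) and lay entirely inside the Bio-Myc peak, sharing 958 bp with it. The peaks began 429 bp and 614 bp upstream of the single annotated TSS at 98701614, and their centres were 34 bp apart. *Mll2* thus carried the highest-scoring Bio-Myc peak among the promoter peaks of the 10 genes.

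*Mll3* (ENSMUSG00000038056.8, chromosome 5, minus strand, 24777612 to 25004601; *Kmt2c* in RefSeq) was bound by Bio-Myc between 25005115 and 25006163 (score 123, rank 2145) and by Max between 25005175 and 25006035 (score 428, rank 1286). They began 514 bp and 574 bp upstream of the outermost TSS at 25004601, and here too the Max peak lay inside the Bio-Myc peak and the centres were 34 bp apart. The divergent lincRNA gene *4831440E17Rik* starts 284 bp from this TSS, at 25004885, so the peaks lie inside that transcription unit, 230 bp and 290 bp from its start.

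In both genes the E-box was near the middle of the peaks. At *Mll2* it was 88 bp from the Bio-Myc peak centre and 54 bp from the Max peak centre, and at *Mll3* these distances were 16 bp and 50 bp. The positions relative to the TSS were also close to each other, 1146 bp upstream in *Mll2* and 1054 bp upstream in *Mll3*. The centres of all of these peaks were just over 1 kb upstream of the TSS, between 1004 and 1092 bp, so neither gene is counted when the peak centre has to lie within 1 kb. For comparison, a peak covered a TSS in 88.9% of the 3275 protein-coding genes with a Bio-Myc peak within 1 kb and in 86.1% of the 7788 with a Max peak, but in 2 of 5 and 4 of 7 of the genes described here. RefSeq promoter windows, matched to mm9, gave nearly the same start sites, 22 bp upstream of the GENCODE TSS for *Mll2* and at the same base for *Mll3*.

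The middle 120 bases of the stretch shared by the Bio-Myc and Max peaks are shown for these genes, on the gene's strand with the E-box in capitals, because the peak centres of both lists fall in them. That of *Mll2* runs from 1151 to 1032 bp and that of *Mll3* from 1063 to 944 bp upstream of the TSS.
Mll2, chr15:98702646-98702765, minus strand: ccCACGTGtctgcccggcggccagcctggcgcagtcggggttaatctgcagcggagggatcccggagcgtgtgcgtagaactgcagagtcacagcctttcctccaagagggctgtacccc
Mll3, chr5:25005545-25005664, minus strand: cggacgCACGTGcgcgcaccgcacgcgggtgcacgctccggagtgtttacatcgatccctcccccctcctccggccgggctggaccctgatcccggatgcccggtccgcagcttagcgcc
The *Mll3* stretch holds 17 CpG dinucleotides and the *Mll2* stretch 9. In *Mll3* a CACGCG, a related sequence that Myc and Max dimers also bind, follows the E-box at 1039 bp upstream of the TSS.

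The other catalytic genes had no Bio-Myc peak nearby. At *Mll1* (ENSMUSG00000002028.6, chromosome 9, minus strand, 44611438 to 44689379; *Kmt2a* in RefSeq) a Max peak between 44690470 and 44691302 (score 177, rank 5133) began 1091 bp upstream of the TSS, without an E-box. It lay on the same side as the peaks of *Mll2* and *Mll3* but farther out, with its centre at 1507 bp. Bio-Myc binding closest to *Mll1* was 39.1 kb upstream, over the TSS of *Atp5l*, which encodes a subunit of the mitochondrial ATP synthase.

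*Setd1a* (ENSMUSG00000042308.8, chromosome 7, plus strand, 134920184 to 134943636) was the gene farthest from a peak in the Max list. Its nearest Max peak, between 134912902 and 134913929 (score 197), ended 6255 bp upstream and covered the TSS of the neighbouring *Orai3*, which encodes a calcium channel. Its nearest Bio-Myc peak was 62.6 kb downstream, at *Stx4a*. *Setd1b* (ENSMUSG00000038384.10, chromosome 5, plus strand, 123592202 to 123617444) had a Max peak from 123593935 to 123594574 that began 969 bp downstream of its second TSS at 123592966 and 1733 bp downstream of the outermost one. Its score of 83.4 (rank 11130 of 11570) was near the bottom of the Max list, which ends at 80.02. The peak was centred in an exon and held the E-box in coding sequence shown above. Upstream of *Setd1b*, 2 Max peaks with higher scores, 329 (rank 2071) and 133 (rank 7129), ended at positions -5030 and -6224 bp from the outermost TSS, beyond the 5-kb window. The nearest Bio-Myc peak to *Setd1b* was 181 kb downstream, at *Bcl7a*.

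At all 4 core subunit genes Max covered a TSS, and 2 of them had a Bio-Myc peak within 1 kb of one. *Wdr5* (ENSMUSG00000026917.9, chromosome 2, plus strand, 27370677 to 27392055) encodes the WD40 protein that holds the complex to its catalytic subunit. It was the only one of the 10 genes where overlapping peaks of both lists covered a TSS. The Bio-Myc peak, between 27370230 and 27371130 (score 119, rank 2230), lay inside the Max peak, between 27370015 and 27371371 (score 256, rank 3115). Their centres were 3 bp and 16 bp downstream of the outermost TSS, in the 5′ UTR exon. The E-box was 206 bp downstream of the TSS and 203 bp from the Bio-Myc peak centre, so it was not among the central 200 bp, while a CACGCG lay 3 bp downstream of the TSS, at the centre.

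*Ash2l* (ENSMUSG00000031575.10, chromosome 8, minus strand, 26926663 to 26958166) encodes the subunit that, with Rbbp5, activates the SET domain. Its Bio-Myc peak, between 26958558 and 26959314 (score 99.3, rank 2963), lay 392 bp upstream of the outermost TSS and held an E-box 145 bp from its centre. Its Max peak, between 26950906 and 26951673 (score 162, rank 5694), covered a group of TSSs 6915 to 7237 bp further into the gene and held no CACGTG. The Bio-Myc peak was 7307 bp from the first TSS of that group and the Max peak 6493 bp from the outermost TSS, so the lists gave no shared site. The internal TSSs were rich in CpG, with an observed-to-expected ratio of 0.840 in the 1 kb around the first of them, against 0.426 at the outermost TSS. *Kcnu1* starts 781 bp from the Bio-Myc peak on the other strand.

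*Ash2l* is on chromosome 8, where the Max list was denser than elsewhere. There were 6.34 Max peaks for each Bio-Myc peak on chromosome 8 and 2.44 to 3.37 on the other 18 autosomes, and 60.6% of the 1082 protein-coding genes of chromosome 8 had a Max peak within 1 kb, against 34.8% on the other autosomes. The Bio-Myc share on chromosome 8 was 16.7%, near the 14.6% of all protein-coding genes. The part of this density in the Max peak of *Ash2l* was not tested. Without *Ash2l*, Bio-Myc was at 4 of 9 genes, Max at 6 and both at 3.

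*Rbbp5* (ENSMUSG00000026439.8, chromosome 1, plus strand, 134373944 to 134402242) encodes the partner of Ash2l. It had the strongest Max peak of the 10 genes and no Bio-Myc peak near it. The Max peak, between 134373104 and 134374361 (score 618, rank 595 of 11570), covered the single TSS, while no Bio-Myc peak was closer than 211 kb. Of all 7569 Max peaks within 1 kb of a protein-coding TSS, 463 scored at least as high, and 152 of these (32.8%) had no overlapping Bio-Myc peak. Off chromosome 8 it was 31.6% of 367. Of the 757 highest-scoring Max promoter peaks, 65.3% overlapped a Bio-Myc peak and 68.7% held a CACGTG. The *Rbbp5* peak had neither. It held a CACGCG 383 bp upstream of the TSS, in an exon of the divergent lincRNA gene *6030442K20Rik*, which starts 322 bp from the *Rbbp5* TSS.
Rbbp5, under the Max peak, CACGCG in capitals, chr1:134373547-134373576: gagccaagccagCACGCGctctgaccacgc

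*Dpy30* (ENSMUSG00000024067.7, chromosome 17, minus strand, 74698814 to 74723284) encodes the small subunit that binds Ash2l. A Max peak between 74715453 and 74716326 (score 222, rank 3837) covered its TSS at 74715734, which is 7550 bp inside the outermost TSS. As at *Ash2l*, the TSS with the peak was the one rich in CpG, with a ratio of 0.892 against 0.148 at the outermost TSS. RefSeq has promoter windows at both places, 1 at the outermost TSS and 3 at the internal one. Bio-Myc binding closest to *Dpy30* was 20.2 kb downstream, 379 bp from the TSS of *Memo1*. The Max peak held overlapping CACGCG sites on opposite strands 413 and 415 bp upstream of the TSS, and no CACGTG.

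*Men1* (ENSMUSG00000024947.10, chromosome 19, plus strand, 6334979 to 6340891), whose product menin works with Mll1 and Wbp7, was the reverse case, with Bio-Myc and without Max at the promoter. The Bio-Myc peak from 6334591 to 6335460 covered the TSSs at the start of the gene and was centred in the 5′ UTR exon. Its score of 81.9 (rank 3861 of 3962) was near the lowest of the list, 80, and the peak held neither CACGTG nor CACGCG. The nearest Max peak, between 6341226 and 6341705 (score 87.3, rank 10633 of 11570), lay 1379 bp downstream of a non-coding TSS near the end of the gene and 6247 bp from the outermost TSS, and covered TSSs of the next gene, *Map4k2*.

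The scores of these peaks were placed within each list. Among the 2900 Bio-Myc peaks within 1 kb of a protein-coding TSS, the peak of *Mll2* scored higher than 74.6%, those of *Mll3* and *Wdr5* higher than 41.4% and 39.2%, that of *Ash2l* higher than 22.1% and that of *Men1* higher than 1.93%. The median score of the 5 peaks was 119 against 138 for all 2900. Among the 7569 Max peaks, *Rbbp5*, *Mll2* and *Mll3* were above 93.9%, 91.7% and 86.6%, *Wdr5* above 67.7%, *Dpy30* above 60.5%, *Ash2l* above 43.6% and *Setd1b* above 2.92%. The median of the 7 was 256 against 181 for all. Scores depend on depth and on the control library, and the Max list is longer, so places in one list are not compared with those in the other. The peaks of *Mll2*, for instance, had close ranks in both lists, 856 and 798, but stood above 74.6% and 91.7% of the promoter peaks.

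**Figure D2:**
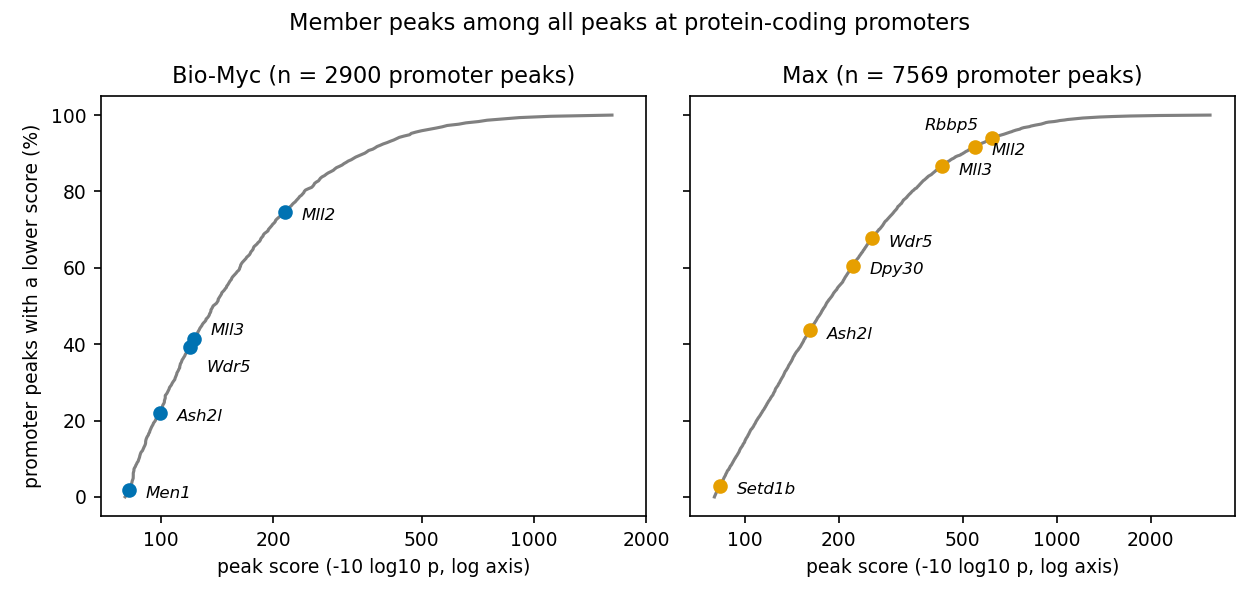
Share of all promoter peaks of the list with a lower score (%) against the peak score (log axis), for 2900 Bio-Myc and 7569 Max peaks within 1 kb of a protein-coding TSS (grey lines), with the peaks of the named genes as points. Mll2 has the highest place of the named genes in the Bio-Myc panel and Rbbp5 in the Max panel, and the panels are read separately because the lists differ in length.

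A CACGTG was found in 4 of the 5 Bio-Myc promoter peaks of these genes (all but *Men1*), where 49.6% of all Bio-Myc peaks at protein-coding promoters held one. It was found in 4 of the 7 Max peaks (*Mll2*, *Mll3*, *Wdr5* and *Setd1b*), against 36.6%. Each of these peaks held a single E-box. The motif CACGCG, counted on both strands (CGCGTG on the other), was in 2 of the 5 peaks of Bio-Myc and in 4 of the 7 of Max, against 55.8% and 48.5% of all such peaks. The 3 genes with overlapping peaks shared the same E-box between the lists. Whether under a peak or not, a CACGTG lay within 1 kb of the outermost TSS at *Wdr5* and *Ash2l*, where it is the E-box under the peak, and at 27.8% of protein-coding genes. Those of *Mll2* and *Mll3* lay just past this window. A match is a description of the sequence and no evidence that the site is used.

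Most of the promoters had a high CpG content, which the choice of the genes did not use. In the 1 kb around the outermost TSS, 7 of the 10 genes (*Mll1*, *Mll2*, *Mll3*, *Setd1a*, *Setd1b*, *Wdr5* and *Rbbp5*) were among the 5594 protein-coding genes with the highest observed-to-expected CpG ratios, 1 of 4 equal classes, with values between 0.783 and 0.905. In that class, Bio-Myc was found within 1 kb of a TSS at 31.3% of genes and Max at 64.7%. Bio-Myc was at 3 of the 7 genes and Max at 5. The other 3 genes were *Men1* at 0.568, *Ash2l* at 0.426 and *Dpy30* at 0.148, the last in the class lowest in CpG, although *Ash2l* and *Dpy30* have the CpG-rich internal TSSs given above. *Setd1a* and *Mll1*, without a peak within 1 kb, had ratios of 0.798 and 0.830. The median was 0.789 for protein-coding genes with both peaks and 0.318 for those with neither, so the promoters of *Setd1a* and *Mll1* resembled the bound class in this measure. The share of promoters with a peak rose with CpG content in both lists, from 1.30% and 4.65% in the class lowest in CpG, and its part in the counts of the 10 genes was not tested further.

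**Figure D3:**
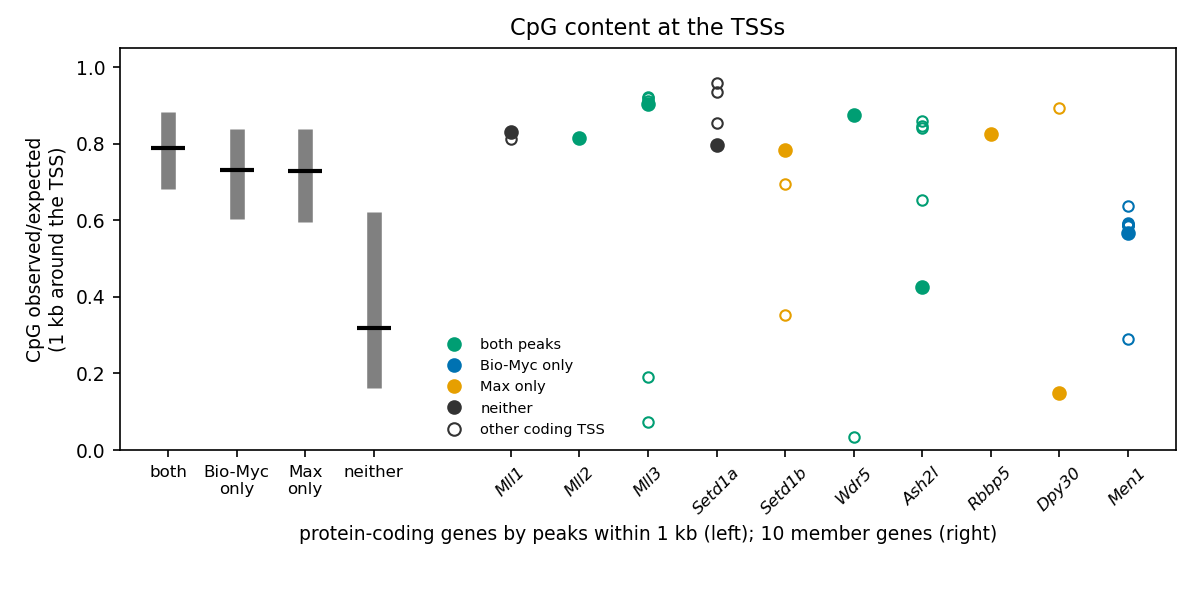
CpG observed-to-expected ratio in the 1 kb around the TSS. Left, median (black) and middle 50% (grey) of protein-coding genes by their peaks within 1 kb; right, each of the 10 genes at its outermost TSS (filled) and other protein-coding TSSs (open), coloured by the peaks found. Setd1a and Mll1 are as rich in CpG as genes with both peaks, and Ash2l and Dpy30 have a CpG-rich TSS inside the gene.

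The other subunits of the complexes were looked up in the same way. Of 10 subunit genes that belong to some of the complexes, 2 had a Bio-Myc peak within 1 kb of a TSS, 8 a Max peak and 1 both, where the shares over all protein-coding genes are 14.6%, 34.8% and 12.7%. *Paxip1*, which encodes the PTIP subunit of the Mll2 and Mll3 complexes, had strong peaks of both lists. Its Bio-Myc peak (chromosome 5, 28117904 to 28119292) had a score of 595 (rank 88), its Max peak a score of 594 (rank 665), both began within 25 bp of the TSS, and both held 2 E-boxes. *Kdm6a*, the H3K27 demethylase of the same complexes, was covered by Bio-Myc at a TSS (score 111, 1 E-box), and its nearest Max peak was 1786 kb away. *Kdm6a* is on chromosome X, where only 4.40% of the 932 protein-coding genes had a Max peak and 5.58% a Bio-Myc peak.

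Max without Bio-Myc was the most frequent pattern, at 7 of these 10 genes. Over 22377 protein-coding genes it was also the most frequent pattern with a peak. It was found at 4956 of them, against 2832 with both peaks and 443 with Bio-Myc only. A Max peak covered a TSS of *Cxxc1*, the CpG-binding subunit of the SETD1 complexes, with a score of 117, and of *Wdr82*, which links them to RNA polymerase II, with a score of 309. The nearest Bio-Myc peak to *Wdr82* was 1879 bp downstream of a TSS, with a score of 86.8. At *Wbp7* a Max peak with a score of 318 lay 31 bp upstream of a TSS, and *Psip1*, *Hcfc2*, *Ncoa6* and *2900092E17Rik* (*Pagr1a*) had Max peaks over a TSS with lower scores, at most 116. *Hcfc1*, on chromosome X, had a peak of neither list.

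Set out by complex, 4 of the 6 genes specific to the Mll2 and Mll3 complexes (*Mll2*, *Mll3*, *Paxip1* and *Kdm6a*) had a Bio-Myc peak within 1 kb and 5 a Max peak. None of the 4 SETD1 genes (*Setd1a*, *Setd1b*, *Cxxc1* and *Wdr82*) had a Bio-Myc peak and 3 had a Max peak. Of 4 genes of the Mll1 and Wbp7 complexes, 1 (*Men1*) had a Bio-Myc peak and 2 (*Wbp7* and *Psip1*) a Max peak. The shares over all protein-coding genes are 14.6% for Bio-Myc and 34.8% for Max, so a Bio-Myc count of 0 or 1 in 4 genes is near the share over all genes. *Hcfc1* and *Hcfc2*, listed as subunits of both the SETD1 and the Mll1 or Wbp7 complexes, were left out of these groups. This division by complex was made after the values were seen, and the difference between the groups was not tested.

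Among 7 other genes whose products have been described as H3K4 methyltransferases, *Mll5*, *Smyd2* and *Smyd3* had overlapping peaks of both lists over a TSS, as against 12.4% of protein-coding genes with overlapping peaks within 1 kb. The Bio-Myc scores were 327, 200 (199.95) and 154 and the Max scores 368, 461 and 210 (210.48). The peaks of *Smyd2* held 2 E-boxes and those of the other two none. *Ash1l*, *Setd7*, *Smyd1* and *Prdm9* had no peak of either list within 5 kb of a TSS. Of the 6 demethylases that remove the mark, 1 had a Bio-Myc peak within 1 kb (*Kdm5c*, on chromosome X, score 108) and 3 a Max peak (*Kdm1a*, *Kdm1b* and *Kdm5b*, scores 109 to 123), and none had both. The shares over all protein-coding genes are 14.6% for Bio-Myc, 34.8% for Max and 12.7% for both. In a list of 6 genes, counts of 1, 3 and 0 are near these shares. The nearest Bio-Myc peak to *Kdm5b*, with a score of 182 and 3 E-boxes, ended 3155 bp upstream of its TSS.

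**Figure D4:**
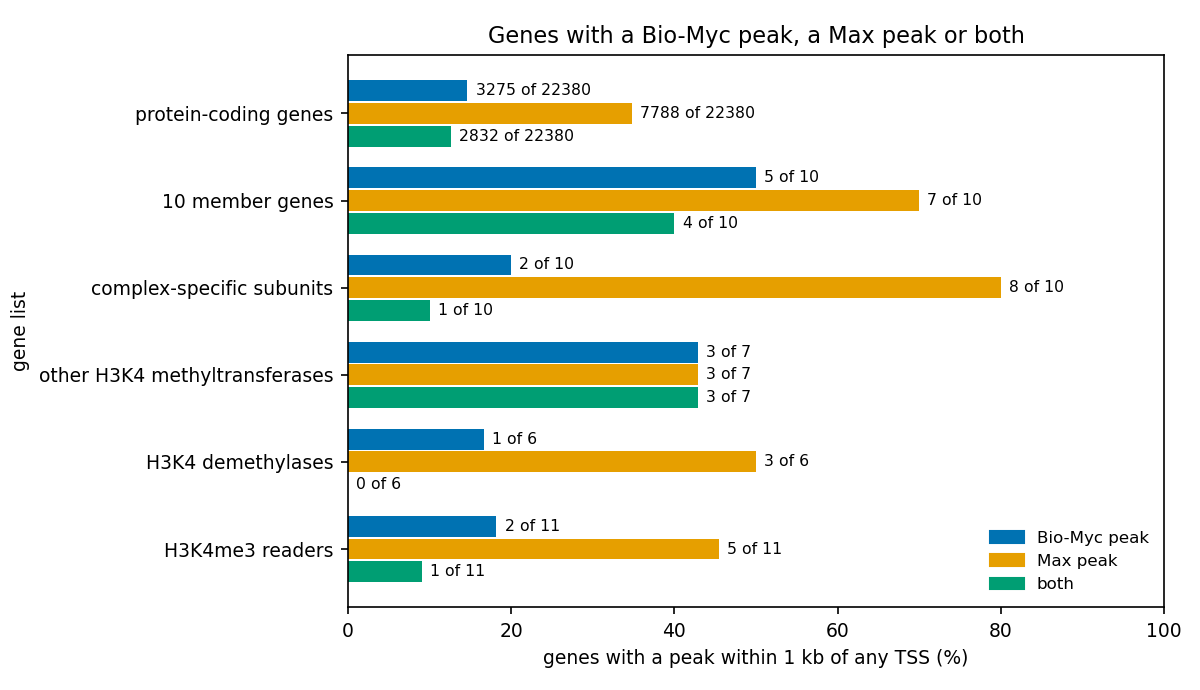
Share of genes (%) with a Bio-Myc peak, a Max peak or both within 1 kb of any TSS, for all protein-coding genes, the 10 genes and the 4 further lists, with the counts beside the bars. The 10 genes are at 5, 7 and 4 of 10, the complex-specific subunits at 2, 8 and 1 of 10, and all protein-coding genes at 14.6%, 34.8% and 12.7%.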

How the data were processed

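Libraries were read on a HiScanSQ instrument. The authors mapped them to mm9 with Bowtie 0.12.7 (unique hits, at most 2 mismatches), removed duplicate reads and called peaks with MACS 1.4.1 against the mock or IgG ChIP at a p-value of 1e-08. The deposited score is 10 times the negative log10 of that p-value. Read numbers are not given in the sources used here, so the depth is unknown. Repeated sequence is not covered by unique hits.

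Peaks were set beside the TSSs and mm9 sequence of GENCODE M1. A peak was assigned when it overlapped the window around any TSS, and peaks of the lists were shared from 1 bp of overlap. Motifs were searched on both strands under whole peaks. Counts are given beside the shares over all protein-coding genes where these were worked out, with no test. All 10 genes are described. The further lists were taken from textbook membership. Genes of the subunit, methyltransferase and demethylase lists may be named, with values for those with a peak, and of the readers those with both peaks. Genes and lists were chosen with earlier results of these data known. RefSeq symbols and promoter windows (GRCm38.p6) were matched by symbol and sequence, and 8 of the 10 genes had a window. The alternatives were other windows, TSSs, score limits, Max peak numbers and motif rules.

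Python 3.11.15, pysam 0.24.0, matplotlib 3.10.9 and samtools 1.23.1 were used. Overlap, rank and motif steps were tested on simulated data, and 8 of 8 returned the planted answer. Coordinates are 1-based.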

Additional observations from a re-analysis of the deposited data

How the results depend on the processing

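Of 53 alternative counts, 37 stayed within 1.5 times the count reported, and none has a test. With the TSS itself covered by a peak, Bio-Myc was counted at 2 of the 10 genes, Max at 4 and both at 1. Of all 22380 protein-coding genes, 2911 had a TSS covered by Bio-Myc and 6705 by Max. Within 500 bp of a TSS, 4 had a Max peak and 2 both. With the peak centre within 1 kb, Bio-Myc was counted at 3, Max at 4 and both at 2. With the outermost TSS only, 4 had a Max peak. At a score of 100 or more, Bio-Myc was counted at 3 genes, and at 150 or more at 1, with both also at 1. No share over all protein-coding genes was worked out for the 500-bp, peak-centre and score limits. A CACGTG was in the central 200 bp of 2 Bio-Myc peaks, and in the only Bio-Myc peak left at a score of 150, a count of 1. Of the 34 genes of the further lists, 8 had a Bio-Myc and 19 a Max peak within 1 kb. The shares over all protein-coding genes in this window are 14.6% and 34.8%. At a score of 150 or more, 5 and 10 of the 34 genes were left. Narrower windows, fewer TSSs and higher score limits keep fewer peaks by construction. RefSeq TSSs and the overlap of the peaks with each other were added after the data were seen, and these counts stayed within 1.5 times. The RefSeq counts, 4 for Bio-Myc, 5 for Max and 3 for both, are of 8 genes. *Setd1b* and *Ash2l* had no RefSeq window and could not be checked in this way. Depth is unknown, so the absence of a peak is not the absence of binding.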

Other observations

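Among 11 genes of proteins that bind trimethylated H3K4, 2 had a Bio-Myc peak within 1 kb of a TSS, 5 a Max peak and 1 both, near the 14.6%, 34.8% and 12.7% of all protein-coding genes. The gene with both was *Ing5*, whose product is a subunit of histone acetyltransferase complexes. Its Bio-Myc peak (chromosome 1, 95699810 to 95700883) had a score of 262 (rank 566) and its Max peak, from 95699876 to 95700877, a score of 291 (rank 2587). Both covered the TSS and held 1 E-box. Of the 5 genes with a Max peak, 2 are on chromosome 8 (*Ing1* and *Ing2*, named here after their values were seen), where Max peaks were dense.

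Of the 34 genes in the 4 further lists, 3 had Bio-Myc and no Max within 1 kb, as had 443 of 22377 protein-coding genes. The 3 were *Kdm6a*, *Kdm5c* and *Ing3*, the first 2 of them on chromosome X. On that chromosome there were 1.32 Max peaks for each Bio-Myc peak, fewer than on any autosome.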
